A study of Mus musculus with 33 samples.

Results

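The earliest neutrophil progenitor and the earliest monocyte progenitor sorted in this mouse bone marrow series, proNeu1 and cMoP, were set against each other across the genome. Of the 33 libraries, 6 entered the comparison, namely the 3 labelled proneu1 and the 3 labelled cmop, all from control animals that the design text calls WT. Genes on chromosomes X and Y were left out, because sex-linked genes separate the animals behind the sorts, as the values below show. Of 54752 features in the deposited table, 18198 had enough counts to be tested and 17604 of these lay outside chromosomes X and Y.

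Populations were sorted by flow cytometry from bone marrow, total RNA was amplified by a SMARTSeq v2 protocol from 2 ng, and polyadenylated transcripts were sequenced as cDNA. Ly6C- GMP (granulocyte-monocyte progenitors without the surface marker Ly6C, 3 libraries) from control animals are quoted as a further level. The labels give proNeu1, cMoP and Ly6C- GMP no engineered allele and no treatment, and no strain or age is named in the sources used here. The fit also held 12 libraries of 4 groups (Ly6C- GMP, proNeu1, proNeu2 and preNeu) from mice with sepsis, 3 days after CLP of the middle grade, which share the estimate of spread and are quoted only for the replicate differences near the end. Each library holds a sorted pool of cells, so more cells of a type and more RNA per cell cannot be told apart in any value that follows. The replicates are described by the design text as biological.

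Total counts were 6781973, 26344365 and 39977745 in the proNeu1 libraries and ran from 17408616 to 24234511 in the cMoP libraries, so the first proNeu1 library was the shallowest. Levels are given as CPM, the counts scaled to library size with TMM factors. Pearson correlations of log2(CPM + 1) across genes ran from 0.972 to 0.976 between proNeu1 libraries, from 0.986 to 0.988 between cMoP libraries and from 0.943 to 0.953 between the groups (genes are not independent replicates). Xist, the RNA of the inactive X chromosome in females, was at 305.8 to 393.3 CPM in proNeu1 and 0.207 to 1.24 CPM in cMoP. The Y-linked gene Ddx3y was at 0 to 0.274 CPM in proNeu1 and 61.2 to 88.7 CPM in cMoP. The Ly6C- GMP libraries were on the proNeu1 side, with Xist at 485.9 to 503.3 CPM and Ddx3y at 0 to 0.316 CPM. Sex and any cohort of animals that goes with it therefore cannot be told apart from cell type in what follows, also for genes outside chromosomes X and Y. This holds as well wherever Ly6C- GMP levels are set beside those of proNeu1 and cMoP.

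Neutrophils and monocytes both descend from granulocyte-monocyte progenitors. Neutrophil progenitors fill azurophil granules with serine proteases and myeloperoxidase while they divide, and later add specific granules holding lactoferrin and cathelicidin. The repressor Gfi1 and the C/EBP factors, C/EBPε above all, drive that programme. Irf8, Klf4 and Zeb2 support the monocyte and dendritic fate, in which cells depend on the M-CSF receptor Csf1r and leave the marrow through the chemokine receptor Ccr2.

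Between proNeu1 and cMoP, 2879 of 17604 genes (16.4%) differed at a Benjamini-Hochberg adjusted p under 0.05 in edgeR's quasi-likelihood test, with 1464 higher in proNeu1 (8.32%) and 1415 lower (8.04%). "Rose" and "higher" below mean called higher in proNeu1 than in cMoP, and "fell" and "lower" mean called lower. Log2 fold changes are proNeu1 over cMoP, given ± their standard error. At least 2-fold changes were called for 706 higher (4.01%) and 827 lower genes (4.70%), and at least 16-fold changes for 224 and 199. The median log2 fold change of all 17604 genes was 0.00 after rounding. Called-higher genes held 31.5% to 32.6% of the counts of each proNeu1 library and 16.9% to 17.3% of each cMoP library. Called-lower genes held 10.6% to 11.3% and 22.7% to 23.1%. In the same fit, 6.08% of genes were called between proNeu1 and Ly6C- GMP, 17.2% between cMoP and Ly6C- GMP and 24.4% between proNeu2, the next neutrophil stage, and cMoP. These contrasts share libraries with one another, and those with cMoP also set groups that differ in Xist and Ddx3y against each other. The library values of proNeu1 and cMoP did not overlap for 6374 genes (36.2%), with proNeu1 above for 3036 (17.2%) and cMoP above for 3338 (19.0%).

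**Figure D1:**
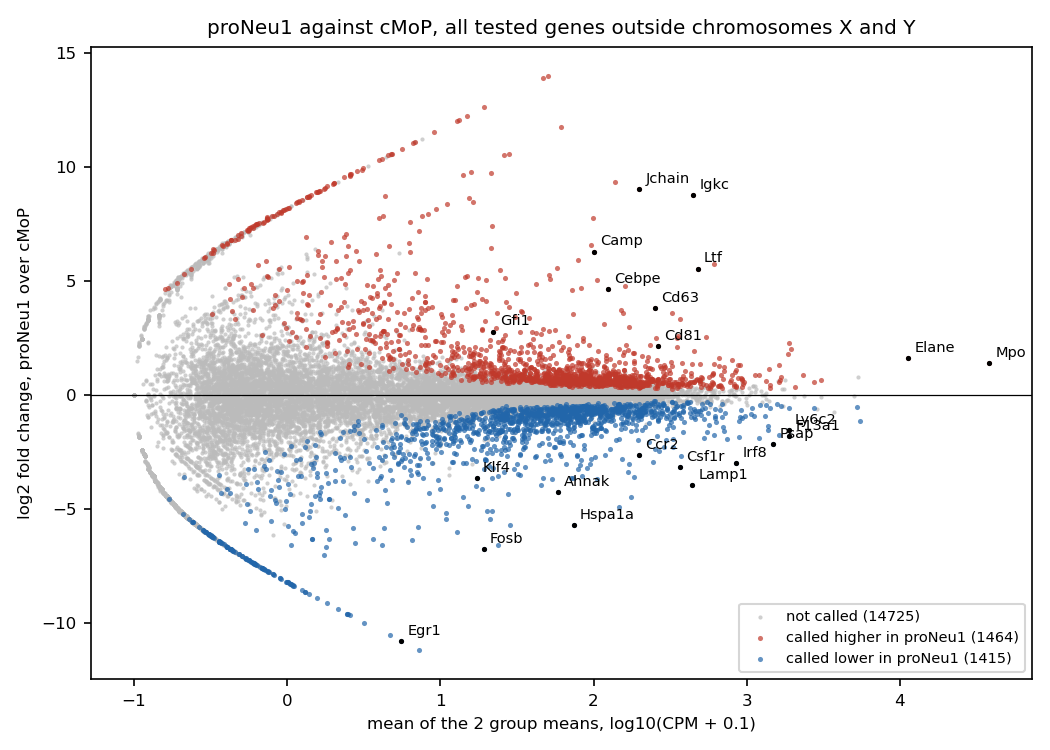
Log2 fold change of proNeu1 over cMoP (vertical axis) against the mean level on a log10 scale (horizontal axis) for 17604 genes, 1 point a gene, with the 1464 called-higher genes in red, the 1415 called-lower genes in blue and selected genes in black. The arcs at the upper and lower left hold genes with 0 counts in all libraries of 1 group, for which the fitted value is no bound.

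Markers of both lineages followed the labels. Of 7 neutrophil progenitor markers (Elane, Mpo, Prtn3, Ctsg, Gfi1, Cebpe and Csf3r), 5 rose, 2 were not called and all 7 had every proNeu1 library above every cMoP library. All 7 monocyte progenitor markers (Csf1r, Ly6c2, Irf8, Klf4, Ccr2, F13a1 and Ctss) fell, without overlap. Neither group lacked the genes of the other lineage. The neutrophil proteases and myeloperoxidase were abundant in cMoP as well, and Ly6c2 and F13a1 were readily counted in proNeu1.

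Most azurophil granule genes were higher in proNeu1. Of 11 members, 7 rose, 1 fell and 3 were not called, with a median log2 fold change of 1.37. Mpo, which encodes myeloperoxidase (ENSMUSG00000009350.13, GRCm38 chromosome 11, 87793581 to 87804413), was at 52809, 55780 and 58507 CPM in proNeu1 and 21244, 19112 and 22286 CPM in cMoP. All proNeu1 libraries were above all cMoP libraries, a log2 fold change of 1.42 ± 0.15 (adjusted p = 1.29e-07). Elane, neutrophil elastase (ENSMUSG00000020125.7, chromosome 10, 79886247 to 79888215), was at 16612, 17202 and 17360 CPM against 5958, 5900 and 4972 CPM. The groups again lay apart, at 1.60 ± 0.23 (adjusted p = 6.86e-06). In Ly6C- GMP, Mpo was at 29663 to 37304 CPM and Elane at 5945 to 7880 CPM, so Elane was near its cMoP level there and Mpo lay between the proNeu1 and cMoP levels.

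Other azurophil genes spread more widely. Cd63, a tetraspanin of the azurophil granule membrane, was at 476, 444 and 495 CPM in proNeu1 and 34.2, 36.9 and 28.7 CPM in cMoP (3.82 ± 0.31, adjusted p = 8.23e-10). Prss57, a further granule serine protease, rose by 2.13 ± 0.35, and Ms4a3, a membrane protein of granulocyte-monocyte progenitors, by 1.55 ± 0.21. Both Prtn3 and Ctsg missed the threshold. Prtn3, which encodes a proteinase, was at 1876, 2161 and 2526 CPM against 1465, 1453 and 1178 CPM (0.68 ± 0.28, adjusted p = 0.0995), and cathepsin G, Ctsg, was at 1831, 1960 and 2024 CPM against 1257, 1374 and 1106 CPM (0.64 ± 0.35, adjusted p = 0.236). Neither overlapped between the groups, and both were called when only the 6 libraries were fitted (adjusted p = 0.0037 and 0.001), where the spread of other groups does not enter. Ctsc, the dipeptidyl peptidase that activates these proteases, went the other way, at 115, 131 and 106 CPM in proNeu1 and 391, 401 and 419 CPM in cMoP (-1.78 ± 0.23, adjusted p = 2.24e-06). The proteases and their activating enzyme thus had opposite signs in this comparison.

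Specific granule genes had the highest median of the neutrophil lists. Of 17 members, 15 rose, 0 fell and 2 were not called, with a median of 3.82. Ltf, lactoferrin (chromosome 9, 111019271 to 111042767), was at 1357, 649 and 803 CPM in proNeu1 and 14.9, 27.1 and 17.8 CPM in cMoP (5.56 ± 0.51, adjusted p = 6.1e-09). Camp, cathelicidin, was at 290, 141 and 166 CPM against 1.83, 3.23 and 2.58 CPM (6.29 ± 0.49, adjusted p = 3.02e-10). Ngp, neutrophilic granule protein, was at 1808, 806 and 995 CPM against 16.6, 28.6 and 21.1 CPM. The first and shallowest proNeu1 library held the highest value of all 3 genes, and the groups stayed far apart in each. In Ly6C- GMP Ltf was at 17.2 to 26.3 CPM, near its cMoP level. In proNeu2 Ltf was at 281 to 653 CPM and Camp at 248 to 454 CPM. In control preNeu, a later neutrophil stage, Ltf was at 28740 to 44820 CPM. The part of later cells in the proNeu1 values was not tested. Cd177, a neutrophil surface protein stored in these granules, rose by 3.60 ± 0.43, and Itgb2l, a β2-like integrin, by 6.47 ± 0.54. The exceptions were Chil3, a chitinase-like protein, at 306 to 762 CPM in proNeu1 and 415 to 468 CPM in cMoP, and the collagenase Mmp8, at 7.87 to 52.4 and 11.8 to 20.5 CPM. For these 2 genes the groups overlapped, and without the first proNeu1 library both turned in direction (Chil3 log2 fold change -0.07, Mmp8 log2 fold change -0.81).

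Genes of later neutrophil stages were either higher or not called. Of 24 members, 14 rose, 0 fell and 10 were not called (median 3.33). Stfa1, Stfa2 and BC100530, which were not called, had 0 counts in all 6 libraries. S100a8 and S100a9, the subunits of calprotectin, rose by 4.78 ± 0.34 and 5.28 ± 0.46, with S100a8 at 415, 292 and 222 CPM against 11.3, 10.7 and 11.9 CPM. Ly6g, a surface protein of maturing neutrophils, reached 1.91 to 4.66 CPM in proNeu1 and 0 to 0.332 CPM in cMoP, and it lost the call without the first or the third cMoP library. Fpr2, a formyl peptide receptor, was at 1.74 to 2.60 CPM in proNeu1 and had 0 counts in cMoP, at least 49.3-fold higher in proNeu1 when the cMoP level is set to 3 counts over its libraries. Of all counts from 1 to 10, 76.2% were even, so each read pair may have been counted as 2 reads. The floor of 3 would then be 3 pairs and the Fpr2 bound 24.7-fold. Of the 5 phagocyte oxidase subunits outside chromosome X, which make superoxide in both cell types, 1 rose and 4 were not called. The one that rose was Cyba, the membrane subunit p22phox, at 184, 155 and 176 CPM against 107, 108 and 93.1 CPM (0.74 ± 0.16, adjusted p = 0.00168).

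**Figure D2:**
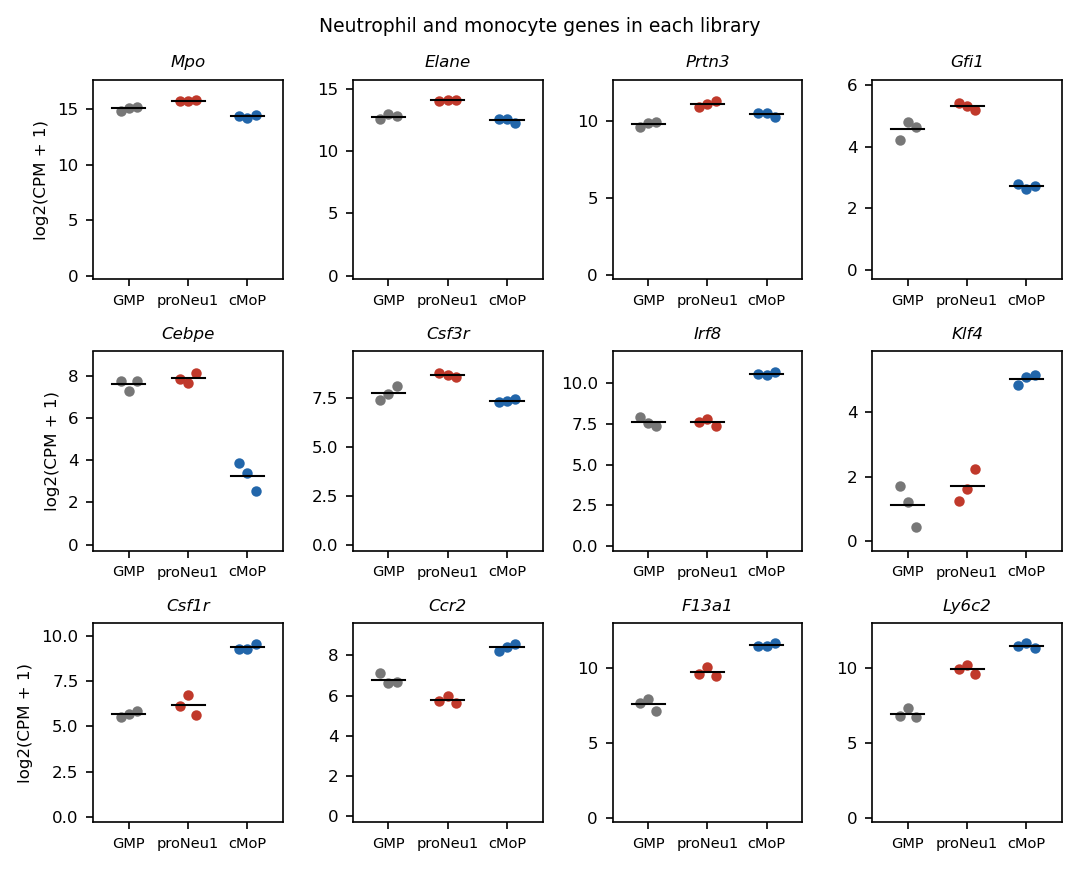
Levels of 12 neutrophil and monocyte genes as log2(CPM + 1) in each Ly6C- GMP (grey), proNeu1 (red) and cMoP (blue) library, 1 point a library, with a bar at the mean of the 3 log values. The proNeu1 and cMoP points of each gene lie apart, and Irf8, Klf4 and Csf1r in proNeu1 sit near their Ly6C- GMP levels.

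Cebpe and Gfi1 were higher in proNeu1 and Irf8, Klf4 and Zeb2 lower, with several shared factors not called. Of 9 measured neutrophil factors, 4 rose, 0 fell and 5 were not called (median -0.02). Cebpe, C/EBPε (ENSMUSG00000052435.7, chromosome 14, 54710360 to 54712174), was at 230, 202 and 282 CPM in proNeu1 and 13.8, 9.54 and 4.86 CPM in cMoP (4.65 ± 0.50, adjusted p = 9.46e-08). Gfi1 (ENSMUSG00000029275.18, chromosome 5, 107716657 to 107726036) was at 41.8, 38.6 and 35.5 CPM against 5.94, 5.22 and 5.63 CPM (2.78 ± 0.30, adjusted p = 1.73e-07). In Ly6C- GMP, Cebpe was at 157 to 214 CPM and Gfi1 at 17.8 to 27.2 CPM, so the cMoP libraries were the low ones for both genes. The other 2 that rose were the circadian regulator Per3 (3.10 ± 0.35) and the repressor Dach1 (2.53). Cebpa, the C/EBP factor that granulocyte-monocyte progenitors need, was at 25.5 to 31.3 CPM in proNeu1 and 22.1, 27.8 and 39.997 CPM in cMoP, with overlapping values. Spi1, which encodes PU.1, was at 368, 387 and 404 CPM against 328, 328 and 255 CPM (0.35 ± 0.41, adjusted p = 0.655). The groups did not overlap for Spi1, and it was called when only the 6 libraries were fitted (adjusted p = 0.0484). Cebpd lay at 43.6 to 115 CPM in proNeu1 and 35.1 to 100 CPM in cMoP, and its direction changed with the library left out.

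Of 19 monocyte and dendritic factors 8 fell, 2 rose and 9 were not called (median -1.80). Irf8 (ENSMUSG00000041515.10, chromosome 8, 120736358 to 120756694) was at 195, 220 and 161 CPM in proNeu1 and 1481, 1463 and 1627 CPM in cMoP (-2.99 ± 0.61, adjusted p = 0.000857). Its Ly6C- GMP values, 164 to 237 CPM, overlapped those of proNeu1. Klf4 was at 1.37, 2.10 and 3.72 CPM in proNeu1 and 27.7, 33.4 and 35.0 CPM in cMoP (-3.66 ± 0.67, adjusted p = 0.000257). Zeb2, a repressor that limits other myeloid fates, was at 93.0, 109 and 99.3 CPM against 214, 244 and 253 CPM (-1.24 ± 0.29). Irf5, an interferon regulatory factor of macrophage activation, fell by 3.09 ± 0.41 on the log2 scale and Nfil3, a basic leucine zipper factor, by 2.84. The 2 that rose were Id2, an inhibitor of basic helix-loop-helix factors, at 21.4, 21.3 and 19.7 CPM against 5.21, 4.65 and 4.34 CPM, and Bhlhe40, a transcriptional repressor (2.89 ± 0.51). Without the third cMoP library, Bhlhe40 stood at 4.09.

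Promoter sequences are shown for 3 genes that were higher in proNeu1 and 2 that were lower, so that the motifs of the factors above can be compared between the sides. Each run is the RefSeq promoter of GRCm38.p6, from 250 bases before to 50 after the RefSeq start, in the direction of the gene. Capitals mark GAGGAA, a form of the PU.1 site, and TTGCNNAA, a form of the C/EBP site, searched on both strands together with the ETS-IRF composite and the IRF repeat of interferon regulatory factors. They lie at chr11:87793534-87793833 (Mpo, plus strand), chr10:79886062-79886361 (Elane, plus), chr5:107725756-107726055 (Gfi1, minus), chr8:120736108-120736407 (Irf8, plus) and chr15:75111922-75112221 (Ly6c2, minus).
Mpo: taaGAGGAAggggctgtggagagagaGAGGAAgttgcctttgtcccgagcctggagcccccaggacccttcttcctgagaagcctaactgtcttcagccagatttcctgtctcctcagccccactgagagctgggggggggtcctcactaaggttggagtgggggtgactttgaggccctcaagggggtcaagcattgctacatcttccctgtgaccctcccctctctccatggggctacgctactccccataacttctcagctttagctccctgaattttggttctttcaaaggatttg
Elane: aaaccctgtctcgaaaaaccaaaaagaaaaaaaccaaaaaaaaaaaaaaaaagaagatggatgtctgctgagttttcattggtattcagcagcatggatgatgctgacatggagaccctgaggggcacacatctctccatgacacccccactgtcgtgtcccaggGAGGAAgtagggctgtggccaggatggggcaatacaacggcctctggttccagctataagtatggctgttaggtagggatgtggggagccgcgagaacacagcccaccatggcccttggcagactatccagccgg
Gfi1: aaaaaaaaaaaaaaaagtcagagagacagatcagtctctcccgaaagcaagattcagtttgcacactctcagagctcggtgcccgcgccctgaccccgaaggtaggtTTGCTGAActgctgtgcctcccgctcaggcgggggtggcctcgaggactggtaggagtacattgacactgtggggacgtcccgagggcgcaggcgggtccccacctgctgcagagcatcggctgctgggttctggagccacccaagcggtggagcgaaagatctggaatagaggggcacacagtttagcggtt
Irf8: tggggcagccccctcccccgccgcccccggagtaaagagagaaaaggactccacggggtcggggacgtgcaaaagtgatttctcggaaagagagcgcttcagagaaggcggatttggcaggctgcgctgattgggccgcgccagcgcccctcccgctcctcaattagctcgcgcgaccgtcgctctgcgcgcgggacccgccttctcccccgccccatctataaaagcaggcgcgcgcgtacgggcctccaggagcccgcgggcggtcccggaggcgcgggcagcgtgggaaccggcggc
Ly6c2: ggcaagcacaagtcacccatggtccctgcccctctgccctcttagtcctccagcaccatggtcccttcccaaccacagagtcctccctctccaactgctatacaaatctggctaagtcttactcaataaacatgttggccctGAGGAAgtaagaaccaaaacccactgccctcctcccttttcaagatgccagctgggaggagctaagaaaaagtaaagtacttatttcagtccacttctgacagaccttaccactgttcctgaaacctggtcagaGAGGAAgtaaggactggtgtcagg
The PU.1 letters occur in promoters of both directions. Mpo holds 2 copies, Elane 1 and Ly6c2 2, and Gfi1 holds the C/EBP letters once, 143 bases before its start. Irf8 holds none of the 4 motifs in this window. The core AAATC of the Gfi1 site, searched on both strands, is not marked above. Its first base lies at -150 and 44 from the start in Mpo, -174 and -140 in Irf8 and -147 in Ly6c2. The RefSeq starts of Elane, Mpo and Gfi1 lie 65, 203 and 231 bases from the gene boundary in the deposited table, so these windows depend on the start chosen.

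Over the 10703 tested genes with a RefSeq promoter, PU.1 letters were in 27.0% of windows, against 32.6% for the 473 with a promoter among genes at least 2-fold higher in proNeu1 and 31.7% for the 562 among genes at least 2-fold lower. The shares of the C/EBP letters were 8.51% of all, 12.7% of the higher and 9.25% of the lower genes. The IRF repeat was in 3.25%, 3.38% and 4.98%, the ETS-IRF composite in 2.50%, 2.11% and 2.67%, and the core AAATC of the Gfi1 site in 28.3%, 29.4% and 27.0%. Short motifs overlap one another and occur by base composition alone. The mean GC content of the windows was 60.1% for all, 59.0% for the higher and 60.1% for the lower genes. A match describes letters only.

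Most monocyte genes were lower in proNeu1, with 20 of 30 members falling, 1 rising and 9 not called (median -2.43). Csf1r, the M-CSF receptor (chromosome 18, 61105572 to 61132149), was at 69.1, 104 and 49.3 CPM in proNeu1 and 616, 622 and 752 CPM in cMoP (-3.16 ± 0.46, adjusted p = 1.28e-05). Ccr2 was at 52.0, 63.2 and 48.0 CPM against 301, 340 and 376 CPM (-2.64 ± 0.41, adjusted p = 3.05e-05). F13a1, the transglutaminase subunit of coagulation factor XIII, was at 761, 1079 and 712 CPM against 2815, 2798 and 3198 CPM (-1.79 ± 0.36, adjusted p = 0.00064). For F13a1 proNeu1 lay between the cMoP libraries and Ly6C- GMP, which held 143 to 241 CPM, whereas for Ccr2 proNeu1 lay under Ly6C- GMP (96.6 to 137 CPM, a difference that was not called, adjusted p = 0.13). Pld4, an endolysosomal exonuclease of myeloid cells, fell by 2.92 ± 0.31, Mpeg1, the pore-forming perforin-2, by 2.28 ± 0.26, and Lgals3, galectin-3, by 3.25 ± 0.40 on the log2 scale. Ahnak, a giant scaffold protein, was at 2.74, 8.34 and 5.39 CPM against 115, 111 and 107 CPM, and Fn1, fibronectin, at 8.50, 9.43 and 0 CPM against 79.0, 88.6 and 86.2 CPM. The member that rose was Slamf7, a signalling receptor of the SLAM family, at 2.07 to 4.25 CPM against 0 to 0.220 CPM, and it lost the call without the second or the third cMoP library and stood at 8.99 (Slamf7 log2 fold change) without the first.

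The gene of the surface marker Ly6C was counted on both sides. Ly6c2, the main Ly6C gene (ENSMUSG00000022584.14, chromosome 15, 75108158 to 75111970), was at 976, 1144 and 753 CPM in proNeu1, 2810, 3123 and 2499 CPM in cMoP and 104 to 157 CPM in Ly6C- GMP. The 3 groups were in that order of cMoP, proNeu1 and Ly6C- GMP without overlap (cMoP contrast -1.55 ± 0.19, adjusted p = 9.4e-07). Its neighbours on chromosome 15 moved alike. Ly6e, a further Ly6 surface protein, averaged 740.1 CPM in proNeu1 and 2494 CPM in cMoP (-1.75 ± 0.26). Ly6i and the transcribed pseudogene I830127L07Rik had log2 fold changes of -3.01 and -2.80, and Ly6c1 of -1.16 ± 0.21, while Ly6a at 0.37 was not called. Ly6i lost the call without the second or the third proNeu1 or the first cMoP library. Ly6c1, Ly6c2, Ly6i and the pseudogenes are near copies, so the division of reads among them is uncertain. In the granule protease cluster on chromosome 10, by contrast, Elane rose, its neighbours Prtn3 and Cfd were not called, and Ptbp1 and Plppr3 beside them fell by 0.74 and 1.08 on the log2 scale.

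Receptors for growth factors and cytokines changed in both directions. Of 30 members, 8 rose, 14 fell and 8 were not called (median -0.68). Csf3r, the G-CSF receptor, was at 448, 406 and 389 CPM in proNeu1 and 160, 161 and 178 CPM in cMoP (1.32 ± 0.14, adjusted p = 1.06e-07). Kit, the stem cell factor receptor, was at 370, 400 and 364 CPM against 170, 171 and 220 CPM (1.01 ± 0.19, adjusted p = 0.000285). Flt3, the receptor of dendritic and lymphoid progenitors, was low in both at 2.38 to 3.05 and 7.85 to 15.6 CPM (-2.13 ± 0.67, adjusted p = 0.029), and it lost the call without any of 5 of the 6 libraries. The falls included the receptors of interleukin 6 (Il6ra -1.54 ± 0.18, and Il6st -3.20 ± 0.46) and of interleukin 10 (Il10ra at 0.274 to 2.47 against 29.8 to 50.2 CPM). The shared β chain of the GM-CSF and interleukin 3 receptors, Csf2rb, fell by 0.91 ± 0.14 and both chains of the type I interferon receptor fell (Ifnar1 -0.79, Ifnar2 -1.75). The chains of the interferon γ receptor had opposite signs. Ifngr1, which binds the ligand, was at 957, 1081 and 842 CPM against 458, 452 and 482 CPM (1.05 ± 0.15), and Ifngr2, the signalling chain, had a log2 fold change of -1.06.

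Of 17 chemoattractant receptors 5 rose, 3 fell and 9 were not called (median 0.00), and 3 were called higher when only the 6 libraries were fitted. Cmklr1, which was not called, had 0 counts in all 6 libraries. The higher ones included Ltb4r1 for leukotriene B4 at 193, 184 and 201 CPM against 57.2, 57.9 and 79.6 CPM (1.57 ± 0.18) and C5ar1 for complement C5a at 25.2, 5.95 and 13.9 CPM against 0.807, 0.760 and 0.517 CPM (4.35 ± 0.67). The lower ones were Ccr2, the fractalkine receptor Cx3cr1 (-2.57 ± 0.68) and the sphingosine phosphate receptor S1pr4 (-1.06 ± 0.21). Among 25 integrin and adhesion genes, 5 rose, 9 fell and 11 were not called. Itgam and Itgb2, the CD11b and CD18 chains of one integrin, rose by 1.79 ± 0.32 and 0.62. Cd81, a tetraspanin, was at 436, 417 and 444 CPM against 104, 95.6 and 91.8 CPM (2.15 ± 0.15, adjusted p = 4.12e-11). Selplg, the selectin ligand PSGL-1, was at 283, 288 and 262 CPM against 944, 915 and 982 CPM (-1.77 ± 0.11, adjusted p = 3.49e-12). Itgb7 and Itga1, which pair with other integrin chains, fell by 3.57 ± 0.50 and 3.05 ± 0.46.

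Innate sensing and antigen presentation genes were called in both directions, beside 8.32% of all tested genes higher and 8.04% lower. Of 22 pattern recognition genes 4 rose, 6 fell and 12 were not called. Tlr9, the endosomal DNA receptor, had 0 counts in proNeu1 and was at 0.665 to 2.13 CPM in cMoP, at least 36.2-fold lower in proNeu1, or 18.1-fold if each read pair was counted as 2 reads. Nlrp3, an inflammasome sensor, was at 0.0954 to 2.19 against 7.27 to 10.2 CPM (-3.74), lost the call without the second or the third proNeu1 library and had a Nlrp3 log2 fold change of -5.66 without the first. Irak3, a brake on Toll-like receptor signalling, was at 121, 102 and 94.1 CPM against 34.8, 27.5 and 39.3 CPM (1.64 ± 0.17). Of 16 Fc receptors and C-type lectins 5 rose, 5 fell and 6 were not called, and the lower count was 2 without the third proNeu1 or the first cMoP library. Clec12a, an inhibitory lectin, was at 1335, 1356 and 1079 CPM against 492, 507 and 514 CPM (1.32 ± 0.14), whereas Fcer1g, the signalling γ chain of Fc receptors, had a log2 fold change of -1.78. Of 15 class I presentation genes 1 rose, 5 fell and 9 were not called, with B2m, the class I light chain, at 506, 491 and 479 CPM against 782, 793 and 698 CPM (-0.62 ± 0.12), and the lower count was 3 without the third cMoP library. In the interferon response list 1 gene rose, 6 fell and 19 of 26 were not called. The number higher was 0 without the first or the third proNeu1 or the second or the third cMoP library, and 2 without the second proNeu1 library. Ifi209 was at 35.6, 53.4 and 22.3 CPM against 295, 280 and 331 CPM, but it and the other falling members Ifi204 and Ifi211 belong to a family of near copies. Ifi204 (-3.31) lost the call without the third proNeu1 library and had an Ifi204 log2 fold change of -5.31 without the second.

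Most cell division genes were not called, as for all tested genes, of which 8.32% were called higher and 8.04% lower. Among the 2417 genes at 100 CPM or more in either group, 579 were called higher and 457 lower. Of 28 DNA replication genes 4 rose, 2 fell and 22 were not called (median -0.08), and limma called 6 lower. Without the third proNeu1, the first cMoP or the second cMoP library 0 of them were called higher. Of 24 G2 and M phase genes 1 rose, 3 fell and 20 were not called (median 0.02), and 4 were called higher when only the 6 libraries were fitted. Ccna2, cyclin A2, was at 147, 166 and 146 CPM against 243, 242 and 256 CPM (-0.69 ± 0.14), and Ccnb2, cyclin B2, was at 206, 247 and 228 CPM against 146, 128 and 152 CPM (0.68 ± 0.18). Of 21 measured genes listed as G1 cyclins and CDK inhibitors 5 rose, 3 fell and 13 were not called (median -0.18). When each library was left out, 2 to 4 were called higher and 1 to 4 lower. Among them cyclins D2 and D3 had opposite signs as well. Ccnd2 was at 254, 288 and 433 CPM against 132, 140 and 156 CPM (1.19 ± 0.38, adjusted p = 0.0312), and Ccnd3 at 384, 375 and 330 CPM against 462, 447 and 497 CPM (-0.37 ± 0.10, adjusted p = 0.0138). Ccnd2 lost the call without any library but the first of proNeu1, Ccnd3 without the third of either group, and Ccnb2 without the second of either group. Cdk6, the kinase that binds D cyclins, was at 1192, 1130 and 1128 CPM against 699, 742 and 704 CPM (0.69 ± 0.11, adjusted p = 4.5e-05). Of 23 ribosome biogenesis genes 1 rose, 1 fell and 21 were not called, 0 were called lower without the first proNeu1 library, and limma called 4 higher. Myc, which drives that programme, was at 397, 463 and 644 CPM against 337, 294 and 374 CPM (0.58 ± 0.29, adjusted p = 0.183, and 0.034 when only the 6 libraries were fitted, with a Myc log2 fold change of 0.33 without the third proNeu1 library).

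Some progenitor genes were higher in proNeu1. Of 26 measured, 6 rose, 1 fell and 19 were not called (median 0.59), beside 8.32% of all tested genes higher and 8.04% lower. Slamf1 and Mycn, which were not called, had 0 counts in all 6 libraries. When each library was left out, 4 to 6 were called higher and 0 to 1 lower. Myb, a factor of immature haematopoietic cells, was at 353, 292 and 343 CPM in proNeu1 and 124, 115 and 113 CPM in cMoP (1.48 ± 0.24, adjusted p = 3.97e-05), against 373 to 397 CPM in Ly6C- GMP. Hlf, a transcription factor found in stem cells, was at 15.1, 14.2 and 11.6 CPM against 0.881, 0.475 and 0.362 CPM (4.52 ± 0.42). Cd34, the progenitor surface marker, was at 122, 138 and 129 CPM against 286, 320 and 317 CPM (-1.25 ± 0.55, adjusted p = 0.123). Its groups did not overlap, and it was called when only the 6 libraries were fitted (adjusted p = 2.2e-05).

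Some genes of the secretory pathway were higher and some lysosome genes lower in proNeu1. Of 25 genes for ER chaperones and translocation, which import and fold secreted proteins, 9 rose, 1 fell and 15 were not called (median 0.29), and 14 were called higher when only the 6 libraries were fitted. Pdia3, a disulfide isomerase, was at 2980, 2948 and 3203 CPM against 1674, 1570 and 1702 CPM (0.88 ± 0.11, adjusted p = 9.48e-07). Spcs2, a signal peptidase subunit, was at 1009, 901 and 1070 CPM against 445, 418 and 412 CPM (1.23 ± 0.14), and Hspa5, the chaperone BiP, was at 4187, 3198 and 3957 CPM against 2382, 2268 and 2444 CPM. Hspa5 (0.68) lost the call without the first or the third proNeu1 or the second cMoP library. Txndc5, a thioredoxin-domain isomerase, was the member that fell, at 74.9, 89.2 and 102 CPM against 438, 368 and 305 CPM. Of 23 lysosome genes 12 fell, 1 rose and 10 were not called (median -0.40). Psap, prosaposin, which activates sphingolipid breakdown, was at 534, 616 and 501 CPM against 2433, 2310 and 2558 CPM (-2.14 ± 0.14, adjusted p = 9.94e-12). Ctss, cathepsin S, was at 15.4, 30.2 and 14.7 CPM against 159, 137 and 142 CPM (-2.85 ± 0.38), while cathepsin D (Ctsd -0.13) was not called.

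Of 16 glycolysis genes 5 rose, 4 fell and 7 were not called, and the lower count was 2 without the first proNeu1 library. For this list and the next ones, the shares over all tested genes were 8.32% higher and 8.04% lower. The myeloid hexokinase Hk3 was at 1103, 1247 and 1116 CPM against 760, 751 and 808 CPM (0.58 ± 0.11), whereas Pgam1, phosphoglycerate mutase, was at 258, 254 and 246 CPM against 450, 443 and 465 CPM (-0.84 ± 0.13). Gapdh had a log2 fold change of -1.54 ± 0.21, and its many pseudogenes make its reads uncertain. Of 18 oxidative phosphorylation genes 1 rose, 4 fell and 13 were not called. Of 10 nuclear envelope genes 2 rose, 5 fell and 3 were not called. Lmnb1, lamin B1, was at 55.4, 60.5 and 128 CPM in proNeu1 and 413, 424 and 439 CPM in cMoP (-2.38 ± 0.30, adjusted p = 1.73e-06), while Lmna, lamin A, was at 9.32, 10.2 and 4.91 CPM against 0.440, 0.380 and 0.103 CPM, and Syne1, the linker nesprin-1, at 178, 127 and 170 CPM against 7.71, 7.36 and 3.20 CPM (4.69 ± 0.52). The A-type and B-type lamins thus had opposite signs, and in Ly6C- GMP Lmnb1 was at 77.2 to 144 CPM.

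**Figure D3:**
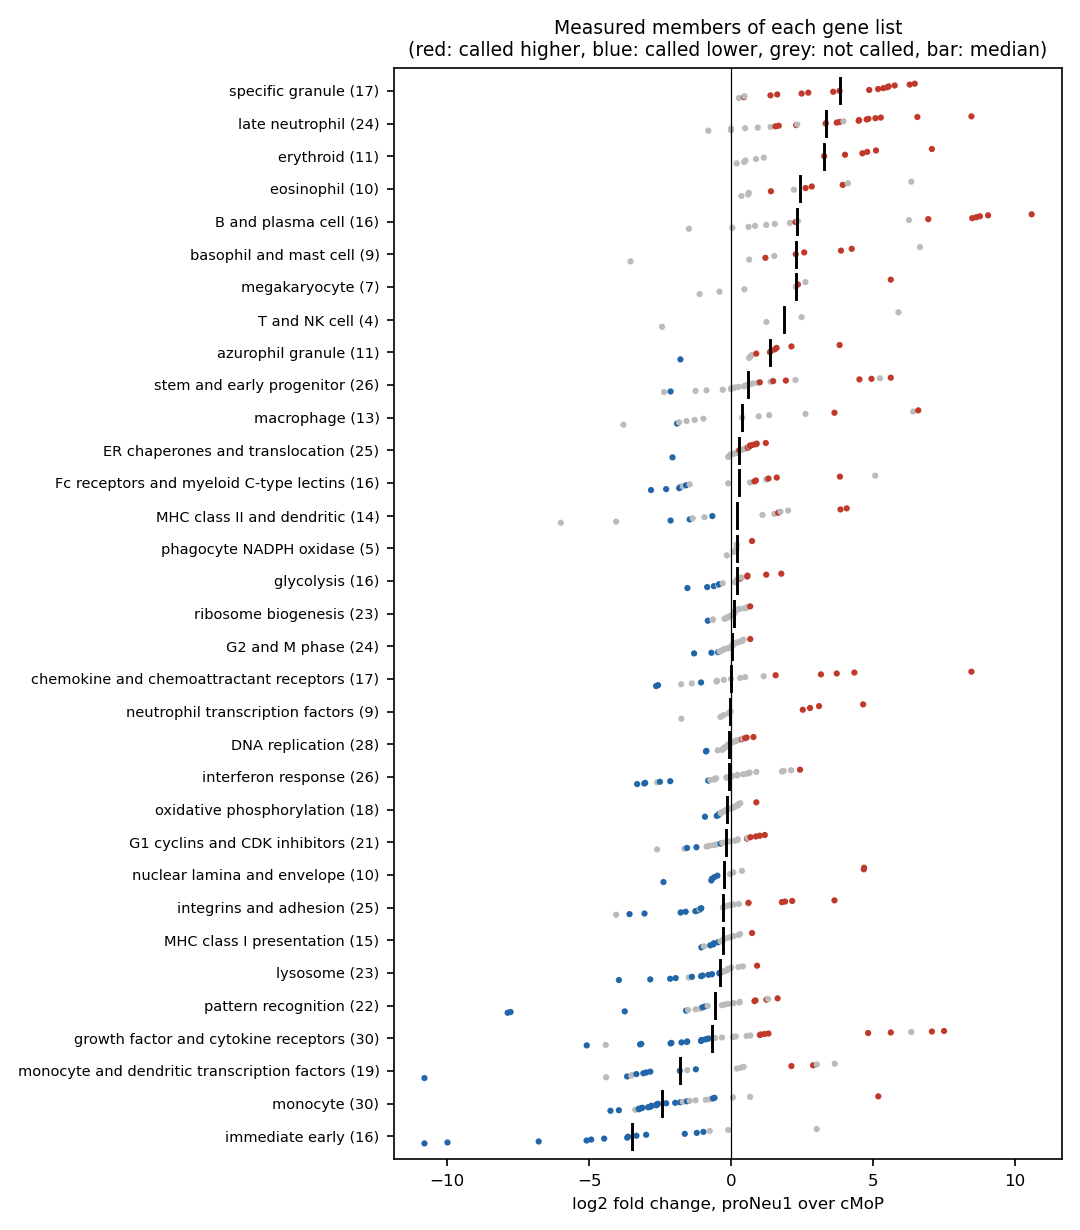
Log2 fold change of proNeu1 over cMoP (horizontal axis) for every measured member of 33 gene lists, 1 point a gene, with red for called higher, blue for called lower, grey for not called and a black bar at the list's median. Specific granule genes have the highest median, 3.82, and immediate early genes the lowest, -3.48.

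Immediate early genes, which cells switch on within minutes of a stimulus, had the lowest median of the lists. Of 16 measured, 13 fell, 0 rose and 3 were not called (median -3.48), and the number lower ran from 10 to 13 when each library was left out and was 7 with limma. Fos was at 8.50, 6.02 and 13.2 CPM in proNeu1 and 116, 227 and 510 CPM in cMoP (-4.92 ± 0.61, adjusted p = 9.48e-07), and Jun was at 16.2, 8.05 and 21.4 CPM against 166, 303 and 543 CPM (-4.47 ± 0.62). The cMoP libraries differed among themselves. Summed over the list they held 739.7, 1247 and 2396 CPM, against 318.9 to 331.7 CPM in proNeu1 and 372.8 to 426.7 CPM in Ly6C- GMP. Egr1 had 0 counts in every proNeu1 library and was at 0.0734, 4.99 and 27.5 CPM in cMoP, at least 278-fold lower in proNeu1 (139-fold if each read pair was counted as 2 reads), although most of that cMoP level was in the third library and limma did not call it (Egr1 log2 fold change -5.70, adjusted p = 0.243). The heat shock gene Hspa1a was at 2.88, 1.41 and 3.96 CPM against 120, 146 and 171 CPM (-5.71 ± 0.83), with reads that its near copy Hspa1b may share. Some of these genes also differed between replicates of another group. In the Ly6C-high monocytes of the series Hspa1a was at 244, 298 and 22.5 CPM, Fosb at 30.6, 112.5 and 2.26 CPM and Egr1 at 4.26, 57.0 and 2.26 CPM. Whether the handling of the cells has a part in these values was not tested.

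Some replication-dependent histone genes were also lower in proNeu1. Of 49 tested genes of the Hist clusters, 19 fell, 0 rose and the median was -2.86. Hist1h2bg was at 1.51, 0.145 and 0.382 CPM against 31.7, 46.9 and 62.6 CPM (-6.59 ± 0.83), and Hist1h2ac at 0.960, 2.50 and 0 CPM against 24.2, 46.1 and 47.1 CPM. In the Ly6C-high monocytes Hist1h2bg differed between replicates, at 52.3, 82.3 and 12.1 CPM. Most histone messages lack a poly(A) tail and the genes are near copies, so what poly(A)-primed libraries count of them is uncertain. These genes were picked out after their values were seen, from 3 that the naming rule listed.

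Some markers of other cell types were higher in proNeu1 than in cMoP. Of 16 B and plasma cell genes 7 rose, 0 fell and 9 were not called (median 2.31). Igkc, the κ light chain constant region, was at 642, 1430 and 611 CPM in proNeu1 and 5.03, 0.522 and 0.207 CPM in cMoP (8.77 ± 1.35, adjusted p = 2.47e-05). Jchain, which links secreted immunoglobulin, was at 310, 578 and 305 CPM against 1.91, 0.0950 and 0 CPM, and Ighm, the µ heavy chain, at 2664, 4298 and 2491 CPM against 664, 601 and 693 CPM (2.27 ± 0.53). The second proNeu1 library held the highest value of all 3 genes. Ly6C- GMP held 127 to 239 CPM of Igkc and 497 to 557 CPM of Ighm. Without the first cMoP library the log2 fold changes of Igkc and Jchain were 11.2 and 12.8.

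Of 85 immunoglobulin variable segments tested, 37 rose and 0 fell, and they summed to 1020, 2101 and 1016 CPM in proNeu1 and 7.74, 2.66 and 1.96 CPM in cMoP. Light chain constant genes Iglc1, Iglc2 and Iglc3 rose too, with reads that near copies may share. The B cell surface genes stayed low, with Cd79a at 1.57 to 2.74 CPM in proNeu1 and Ms4a1, which encodes CD20, at 0 to 0.0725 CPM. Mzb1 of the same list rose, and Sdc1 was not called. Rag1 was at 0 in all 6 libraries. Summed over the list, proNeu1 held 3515 to 6475 CPM, cMoP 654.3 to 742.5 CPM and Ly6C- GMP 834.7 to 1045 CPM. The part of other cells in any gene higher in proNeu1 was not tested. Without the variable segments, 1427 genes were called higher.

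Of 11 erythroid genes 6 rose, 0 fell and 5 were not called, from a summed level of 199.1 to 308.5 CPM in proNeu1 and 22.5 to 28.5 CPM in cMoP. Car2, carbonic anhydrase 2, was at 180, 117 and 122 CPM against 6.53, 5.70 and 4.65 CPM (4.63 ± 0.41), whereas the globins were low in both, with Hba-a1 at 6.53 to 13.6 and 4.89 to 5.65 CPM. Basophil and mast cell genes gave 5 higher and 4 not called of 9, summed to 701.2 to 715.1 CPM against 110.5 to 128 CPM. Hdc, histidine decarboxylase, made up most of that sum, at 584, 653 and 600 CPM against 103, 108 and 95.8 CPM, and the mast cell protease Cpa3 was at 5.15 to 17.8 CPM against 0.475 to 0.723 CPM. Eosinophil genes gave 4 higher and 6 not called of 10, summed to 71.6 to 105.6 CPM against 25.4 to 27.9 CPM. In Ly6C- GMP the eosinophil list summed to 4276 to 7798 CPM and the basophil and mast cell list to 8137 to 11370 CPM, far over both progenitors. Eosinophil calls numbered 2 without the first proNeu1 or the second cMoP library, and 2 with limma.

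Of 13 macrophage genes 2 rose, 1 fell and 10 were not called, beside 8.32% of all tested genes higher and 8.04% lower. The iron exporter Slc40a1, ferroportin, was at 204, 193 and 172 CPM against 2.79, 1.71 and 1.24 CPM (6.60 ± 0.59), and the adhesion molecule Vcam1 at 65.1, 60.2 and 64.2 CPM against 7.52, 3.99 and 3.46 CPM (3.64 ± 0.43). Both genes were also counted in Ly6C- GMP, Slc40a1 at 72.7 to 104 CPM. The complement gene C1qa, a defining macrophage marker, was at 0 to 0.653 CPM in proNeu1 and Adgre1, a macrophage surface receptor, fell by 1.90 ± 0.35. Of 14 class II and dendritic genes 3 rose, 3 fell and 8 were not called, with Cd74, the invariant chain, at 52.4, 63.8 and 35.6 CPM against 3.52, 3.42 and 1.96 CPM. Ly6C- GMP held far more Cd74, at 932 to 1321 CPM. The lower members were H2-DMa, H2-DMb1 and Flt3, and the lower count was 2 without any 1 of the 6 libraries. Megakaryocyte genes gave 2 higher and 5 not called of 7, and 0 were called higher without the first proNeu1 library. T and NK cell genes, 4 measured, were not called, and summed to at most 2.47 CPM.

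**Figure D4:**
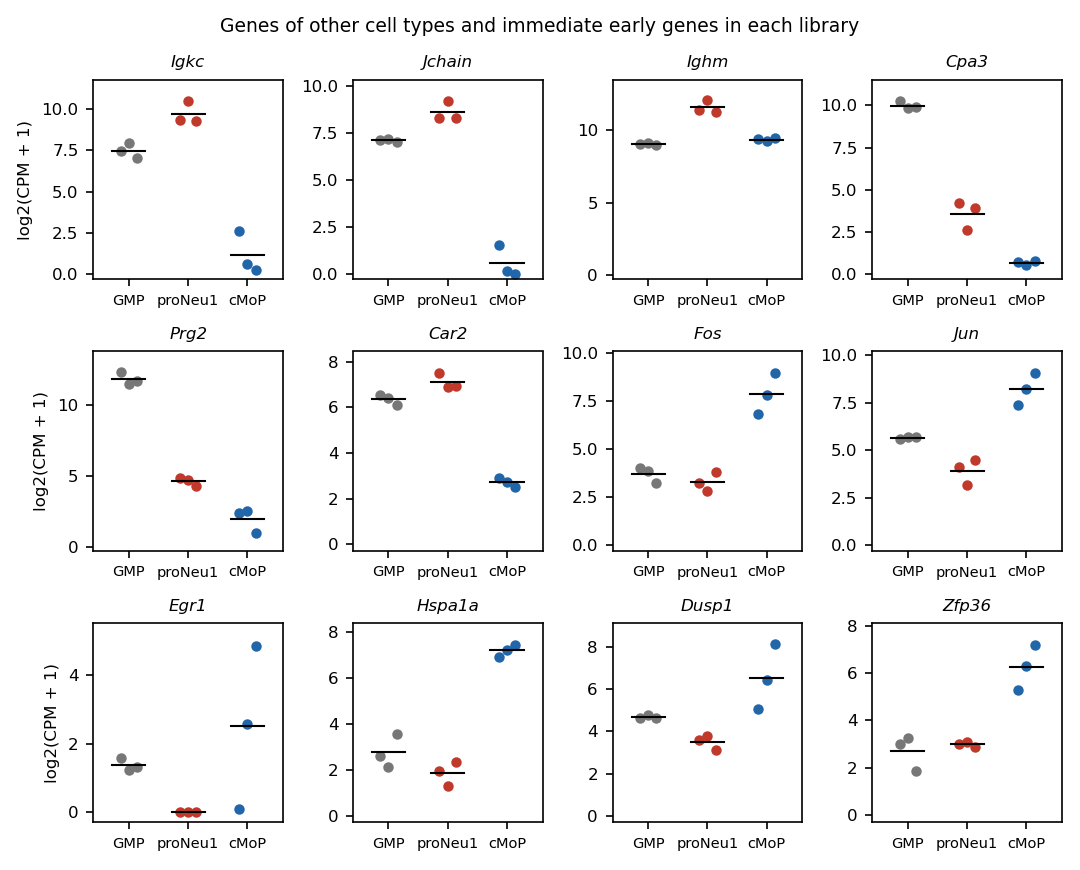
Levels of 12 genes as log2(CPM + 1) in each Ly6C- GMP (grey), proNeu1 (red) and cMoP (blue) library, 1 point a library, with a bar at the mean of the 3 log values. Igkc, Jchain and Ighm are highest in proNeu1, while Fos, Jun, Dusp1 and Zfp36 are high in cMoP and spread among its 3 libraries.

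Beyond the lists, the naming rule gave the genes at 20 CPM or more with the widest gap. Higher in proNeu1 were Ets1, a transcription factor of the ETS family, at 191, 135 and 141 CPM against 3.01, 1.33 and 3.31 CPM (5.92 ± 0.50, adjusted p = 1.49e-09), the growth factor adaptor Grb10, at 18.1, 21.0 and 26.7 CPM against 0.0734, 0 and 0.103 CPM (8.40 ± 0.58), and Gdf3, a ligand of the TGF-β family, at 39.8, 43.0 and 45.8 CPM against 0, 0.665 and 0.103 CPM. All 3 were present in Ly6C- GMP, with Ets1 at 187 to 231 CPM, Grb10 at 73.7 to 92.0 CPM and Gdf3 at 37.4 to 45.2 CPM. Lower in proNeu1 were Trem2, a lipid-sensing receptor of macrophages and microglia, at 0, 1.02 and 0 CPM against 24.5, 29.3 and 21.1 CPM (-6.00 ± 1.12, adjusted p = 0.000295), the membrane protein Ms4a4b, at 0.823, 0.145 and 0.620 CPM against 16.1, 20.8 and 26.4 CPM (-5.45 ± 0.76), and Tmem268, at 0.823, 2.10 and 0 CPM against 40.5, 46.9 and 36.5 CPM. Trem2 was at 0 to 0.633 CPM in Ly6C- GMP, so that the cMoP libraries were the high ones for it. Without the second proNeu1 library the Trem2 log2 fold change was -12.0.

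A few widely expressed genes were also lower by a wide margin. The lysosomal membrane protein Lamp1 was at 53.1, 52.4 and 55.4 CPM in proNeu1 and 907, 892 and 686 CPM in cMoP (-3.95 ± 0.70, adjusted p = 0.000163). Rac1, a small GTPase of the cytoskeleton, was at 22.2, 28.2 and 38.1 CPM against 362, 380.9 and 179 CPM (-3.37 ± 0.86), and Rnf187, a ubiquitin ligase, at 21.9, 27.6 and 33.3 CPM against 354, 333 and 333 CPM (-3.61 ± 0.60). The same genes differed between replicates of other groups. In control preNeu, a later neutrophil stage, Lamp1 was at 64.8, 592 and 540.4 CPM, and in Ly6C- GMP from animals with sepsis at 98.1, 458 and 420.3 CPM. Over the 9 other groups, 10 of 8923 genes at 20 CPM or more differed at least 4-fold between replicates in 3 or more groups. Of these 10, 8 fell, 0 rose and 2 were not called here. The 8 were Faf1, Kcnk12, Lamp1, Mtch1, Rac1, Rnf187, Snx20 and Tbkbp1, chosen after their values were seen. Mtch1 lost the call without any library but the third of cMoP, Faf1 without the first or second proNeu1 or the first cMoP library, and Tbkbp1 without the third proNeu1 library. Limma did not call Faf1 (adjusted p = 0.0743), Kcnk12 (0.105), Mtch1 (0.0757), Rac1 (0.0989), Snx20 (0.0575) or Tbkbp1 (0.15). Without them 1407 genes were called lower, and the source of the split was not tested.

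**Figure D5:**
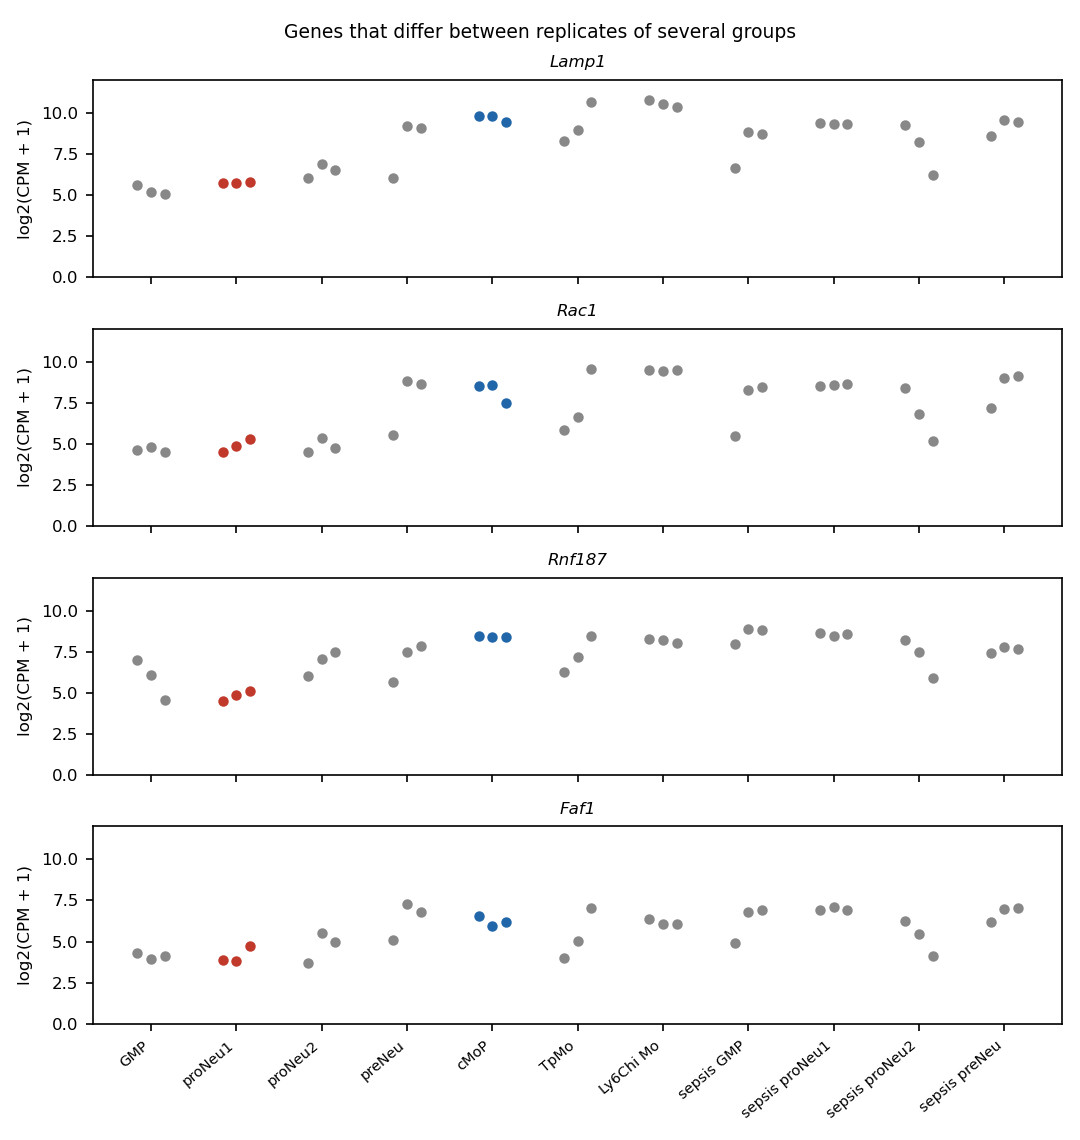
Levels of Lamp1, Rac1, Rnf187 and Faf1 as log2(CPM + 1) in every library of the 11 groups, 1 point a library, with proNeu1 in red, cMoP in blue and the other groups in grey. Replicates of preNeu, TpMo (transitional pre-monocytes) and sepsis proNeu2 lie far apart for the same genes that separate proNeu1 from cMoP. Those of sepsis GMP do so for Lamp1, Rac1 and Faf1. For Rnf187 the control Ly6C- GMP libraries lie apart instead, at 128, 66.5 and 22.6 CPM.

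Base composition differed slightly between the directions of the call. Among 12550 protein-coding genes, the share called higher in proNeu1 was 9.93% for those with a transcript GC content under 40%. It was 12.7% at 45% to 50% and 4.94% for the 486 at 60% or more. The shares called lower were 7.59%, 9.05% and 10.7%. Median transcript GC was 48.8% for called-higher, 51.0% for called-lower and 49.8% for all tested genes. For genes at least 2-fold higher it was 49.7%, near that of all tested genes, and for those at least 2-fold lower 51.0%. The part of base composition in the calls was not tested.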

How the data were processed

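The authors' deposited table holds whole-number counts of reads per gene, not normalized, for 33 libraries of 11 sorted groups with 3 replicates each. Per the submitters' processing notes, STAR and featureCounts were used on GRCm38; their versions and any strand setting are not given in the sources used here, so overlapping and antisense genes cannot be told apart. Groups were read from the cell type and treatment labels.

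All libraries were fitted together in edgeR 4.0.16 (R 4.3.3) by the quasi-likelihood test with TMM scaling, robust dispersion and the default expression filter. Every adjusted p printed comes from edgeR, unless limma or a fit of only the 6 libraries is named beside it, and is Benjamini-Hochberg adjusted over all 18198 tested genes, after which 594 genes on chromosomes X and Y were left out (84 of them called). Standard errors are the log2 fold change divided by the square root of F. CPM are TMM-scaled. Alternatives were limma 3.58.1, DESeq2 1.42.0, other scaling and filters, a fit of only the 6 libraries and leaving out each library.

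The comparison and the gene lists were chosen with earlier results of these data known. Genes were named by rule: the 10 with the largest change in each direction among called genes at 20 CPM or more whose groups do not overlap (without predicted genes, pseudogenes and immunoglobulin variable segments), the 3 called members with the largest change in each direction of each list, the 3 most abundant of each list of other cell types, and a panel of lineage genes. 45 more, mostly list members and neighbours at the Elane and Ly6 loci, were chosen after their values were seen. Sequences come from the RefSeq promoter table of GRCm38.p6.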

Additional observations from a re-analysis of the deposited data

How the results depend on the processing

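The number of genes that differed between proNeu1 and cMoP, 2879 in all, stayed within 1.5 times under other scaling (2918 with DESeq2's size factors), no filter (2417), a stricter filter (3048), halved counts, since most low counts are even (3147), chromosomes X and Y removed before the fit (2853), only the 6 libraries (3337), limma (3879), DESeq2 (3522) and without the genes split between replicates (2871, chosen after seeing the data). Testing against a fold change of 1.5 in place of 0 left 1028 genes, 521 higher and 507 lower. Leaving out each library gave 2019 to 2341 genes, with 911 (without the second cMoP library) to 1143 higher and 1058 to 1246 lower; fewer samples enter those fits. Of 152 called genes named by rule, 93 were called in every one of 15 settings that tested them and 119 without each of the 6 libraries in turn. Genes that were not called could change sign when a library was left out. The Cebpd log2 fold change then ran from -0.642 to 0.299, the Cebpa log2 fold change from -0.271 to 0.144, the Chil3 log2 fold change from -0.0735 to 0.519, the Mmp8 log2 fold change from -0.806 to 0.876 (-0.153 with limma) and the C1qa log2 fold change from -1.41 to 1.52. No paired analysis was possible because the labels give no replicate numbers shared between the groups. The first proNeu1 library, with 6781973 counts, limits the low values of that group, and sex, cohort and cell type cannot be told apart.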
